A study of Mus musculus with 22 samples.

Results

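The WNT ligands, the Frizzled receptors that bind them and the secreted WNT antagonists are 38 of the 24467 genes whose transcription start sites (TSSs) were measured by CUT&RUN in mouse embryonic stem cells (ESC) and in neural progenitor cells (NPC) made from them. They were found by gene symbol from a list of names, a rule that uses no measured value, and comprise 19 ligands (Wnt1 to Wnt16), 10 receptors (Fzd1 to Fzd10) and 9 antagonists (Sfrp1, Sfrp2, Sfrp4, Sfrp5, Frzb and Dkk1 to Dkk4). CUT&RUN releases and sequences the DNA next to an antibody, here against the Polycomb subunits SUZ12, JARID2 and MTF2 or the histone marks H3K27me3 and H3K4me3. There were 2 libraries per antibody and cell type, described as biological replicates, and 1 per cell type for IgG, the control for unspecific signal. All cells were C57BL/6, with the genotype label untagged, Tir1 and the treatment label untreated. ESC grew without serum in N2B27 with LIF at 100 U/mL, PD0325901, a MEK inhibitor, at 1 µM, and CHIR99021 at 3 µM. CHIR99021 inhibits GSK3, the kinase that marks β-catenin for destruction, and so activates the WNT pathway below its receptors. For NPC, this medium was taken off, bFGF was given for 72 h (10 ng/mL), and SAG, which activates Hedgehog signalling, for the next 48 h (500 nM). The comparison of NPC with ESC therefore holds the change of medium, GSK3 inhibitor included, together with the change of cell type.

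WNT ligands are lipid-modified secreted proteins. Through a Frizzled receptor and an LRP co-receptor they stabilise β-catenin, which then acts with TCF/LEF factors on DNA, or they act through other co-receptors on cell polarity and movement. Sfrp proteins and Frzb carry a Frizzled-like domain and can bind the ligand, and Dkk1, Dkk2 and Dkk4 act on the LRP co-receptor. In the embryo these genes have restricted, changing domains, among them the dorsal neural tube for Wnt1 and Wnt3a, and developmental genes of this kind are typical Polycomb targets. PRC2 is the Polycomb complex that writes H3K27me3, and SUZ12 is part of its core. MTF2 belongs to its form PRC2.1 and JARID2 to PRC2.2. H3K4me3 marks promoters that are active or held ready, and a promoter with H3K4me3 and H3K27me3 together is called bivalent.

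Each gene was represented by the read count in a window of 5000 bp around its TSS (build mm10). Levels are given in CPM, a library's counts in a window divided by its total over all windows in units of 1e+06 counts. Changes are log2 ratios, NPC to ESC, from an edgeR quasi-likelihood fit of all windows, each with its standard error (SE). Genes with an adjusted p (Benjamini-Hochberg) under 0.05 were called. Library totals ran from 339591 to 857691 counts for the 3 Polycomb subunits, between 647615 and 1569812 for H3K27me3, between 3264267 and 8425292 for H3K4me3, and were 298458 (ESC) and 667898 (NPC) for IgG. With 3 counts taken as the floor, the limit lay between 0.356 and 10.1 CPM, for counting error only. All 38 genes passed the filter on low counts for every antibody. H3K4me3 was lower in NPC at 8 of 8 naive ESC markers (summed level 1407 to 1466 CPM in the ESC and 216 to 225 CPM in the NPC libraries) and higher at 8 of 8 neural progenitor markers (311 to 330 against 1249 to 1285 CPM). At 3 of 3 housekeeping genes (Actb, Gapdh and Eef2) it was lower as well, with a summed level of 507 to 527 against 384 to 404 CPM. Markers of neurons (60.2 to 64.7 against 168 to 188 CPM, 4 of 4 higher) moved with the cell type too, as did those of endoderm (129 to 146 against 192 to 200 CPM, 1 of 4 higher, Foxa2), mesoderm (166 to 184 against 103 to 107 CPM, 1 of 5 higher) and neural crest (130 to 138 against 57.1 to 59.1 CPM, 0 of 3 higher), and their part in the results was not tested. All these markers were chosen with earlier results of these data known, so they are no independent check of the cell types. In such bulk libraries, fewer cells with a mark and less of it per cell cannot be told apart.

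The promoters of these genes are rich in CG dinucleotides, the sequence feature that PRC2.1 favours. RefSeq (GRCm38.p6) gave a promoter of 300 bases, from 250 before to 50 after the start, for 26 of the 38 genes. Their median was 28 CG, against 13 in all 16623 promoters matched. The median was 31 in 15 ligands, 35 in 6 receptors and 15 in 5 antagonists. The core of the TCF/LEF site, CTTTGA on either strand, stood in 4 of the 26 (15.4%; Wnt11, Fzd1, Frzb and Dkk1) and in 14.99% of all promoters. The core of the GLI site, CCACCCA on either strand, stood in 1 of 26 (3.85%; Fzd7) and in 9.56% of all. Matches of the 2 motifs were counted separately. A pair from each class is printed because its members had values of opposite sign in the results that follow. Of the ligands Wnt7a (chr6:91411304-91411603, 42 CG) had more and Wnt10b (chr15:98778101-98778400, 18 CG) less H3K4me3 in NPC. Of the receptors Fzd7 (chr1:59481897-59482196, 24 CG) had less and Fzd5 (chr1:64737701-64738000, 38 CG) more H3K27me3. Of the antagonists Frzb (chr2:80447347-80447646, 20 CG) had more and Sfrp5 (chr19:42202203-42202502, 15 CG) less H3K4me3. H3K4me3 of Wnt10b and Sfrp5 and H3K27me3 of Fzd7 were not above IgG in either cell type, and the call at Fzd7 was lost under 9 of 13 alternatives. Capitals mark CG, and each sequence runs 5′ to 3′ on the strand of its gene, which is plus for Fzd7 and minus for the others.
Wnt7a: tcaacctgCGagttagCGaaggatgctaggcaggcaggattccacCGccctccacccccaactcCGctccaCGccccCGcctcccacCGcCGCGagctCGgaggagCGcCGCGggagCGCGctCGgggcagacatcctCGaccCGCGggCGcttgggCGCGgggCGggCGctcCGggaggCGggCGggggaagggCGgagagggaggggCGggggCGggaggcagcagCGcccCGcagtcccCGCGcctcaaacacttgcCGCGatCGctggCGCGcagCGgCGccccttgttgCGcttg
Wnt10b: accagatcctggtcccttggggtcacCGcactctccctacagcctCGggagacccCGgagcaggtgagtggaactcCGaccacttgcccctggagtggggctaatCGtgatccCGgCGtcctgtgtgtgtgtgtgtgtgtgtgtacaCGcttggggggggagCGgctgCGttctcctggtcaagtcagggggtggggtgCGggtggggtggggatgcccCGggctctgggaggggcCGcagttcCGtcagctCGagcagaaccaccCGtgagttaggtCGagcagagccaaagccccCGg
Fzd7: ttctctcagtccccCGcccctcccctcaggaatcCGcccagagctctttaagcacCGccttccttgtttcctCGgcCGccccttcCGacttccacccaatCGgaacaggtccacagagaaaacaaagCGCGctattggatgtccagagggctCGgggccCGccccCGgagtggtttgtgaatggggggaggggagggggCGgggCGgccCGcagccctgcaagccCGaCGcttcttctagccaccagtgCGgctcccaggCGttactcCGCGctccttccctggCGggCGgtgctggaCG
Fzd5: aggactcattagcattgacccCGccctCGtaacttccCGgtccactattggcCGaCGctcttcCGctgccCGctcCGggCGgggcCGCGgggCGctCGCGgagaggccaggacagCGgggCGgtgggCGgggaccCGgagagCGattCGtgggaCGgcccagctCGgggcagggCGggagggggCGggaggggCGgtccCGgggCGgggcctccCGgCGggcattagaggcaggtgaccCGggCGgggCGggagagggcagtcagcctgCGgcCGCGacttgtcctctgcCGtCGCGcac
Frzb: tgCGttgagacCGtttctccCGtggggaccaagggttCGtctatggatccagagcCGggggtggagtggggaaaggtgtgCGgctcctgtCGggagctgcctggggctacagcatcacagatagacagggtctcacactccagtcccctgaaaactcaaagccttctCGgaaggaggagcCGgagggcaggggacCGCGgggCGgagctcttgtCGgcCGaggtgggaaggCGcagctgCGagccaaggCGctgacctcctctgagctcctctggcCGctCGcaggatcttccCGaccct
Sfrp5: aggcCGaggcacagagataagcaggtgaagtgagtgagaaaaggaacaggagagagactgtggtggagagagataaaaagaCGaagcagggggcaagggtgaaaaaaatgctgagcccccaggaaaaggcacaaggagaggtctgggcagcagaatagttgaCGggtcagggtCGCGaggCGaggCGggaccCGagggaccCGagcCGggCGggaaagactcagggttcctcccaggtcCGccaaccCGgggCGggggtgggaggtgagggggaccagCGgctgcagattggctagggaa

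In ESC the ligands and the receptors carried different marks. H3K27me3 was above IgG at all 19 ligands, at 4 of 10 receptors and at 7 of 9 antagonists, where above means a log2 ratio of at least 1 with an adjusted p below 0.05 in 1 edgeR fit of all libraries. Of all windows tested, 22.2% met this rule. H3K4me3 was above IgG at 0 of 19 ligands, at 7 of 10 receptors (Fzd1, Fzd2, Fzd4, Fzd5, Fzd7, Fzd8 and Fzd10) and at 2 of 9 antagonists (Sfrp1 and Frzb), against 35.9% of all windows. None of the ligands passed H3K4me3 at an unadjusted p below 0.05 either, and a fit of this antibody with IgG alone also called 0. The median level of H3K27me3 in ESC was 219 CPM over the ligands (138 to 434 CPM), 55.6 CPM over the receptors (11.9 to 116 CPM) and 96.0 CPM over the antagonists (36.1 to 218 CPM), with 20.4 CPM over all windows. The IgG library lay between 26.8 and 104 CPM at these genes, so its single value per gene limits the call. The fit rescales the libraries by TMM factors, so its ratios to IgG differ from those of the CPM printed here. With H3K27me3 fitted together with IgG alone, 7 genes were above IgG in ESC (11.2% of all windows) and 1 in NPC (1.58%). The 7 were 3 of 19 ligands, 1 of 10 receptors and 3 of 9 antagonists, so the difference between ligands and receptors was not kept in that fit. In the joint fit at a log2 ratio of at least 2 it was, with 18 ligands, 1 receptor and 3 antagonists (9.6% of all windows). With scaling by library totals, H3K4me3 was above IgG at 4 genes in ESC (18.2% of all windows) and 8 in NPC (17.1%).

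**Figure D1:**
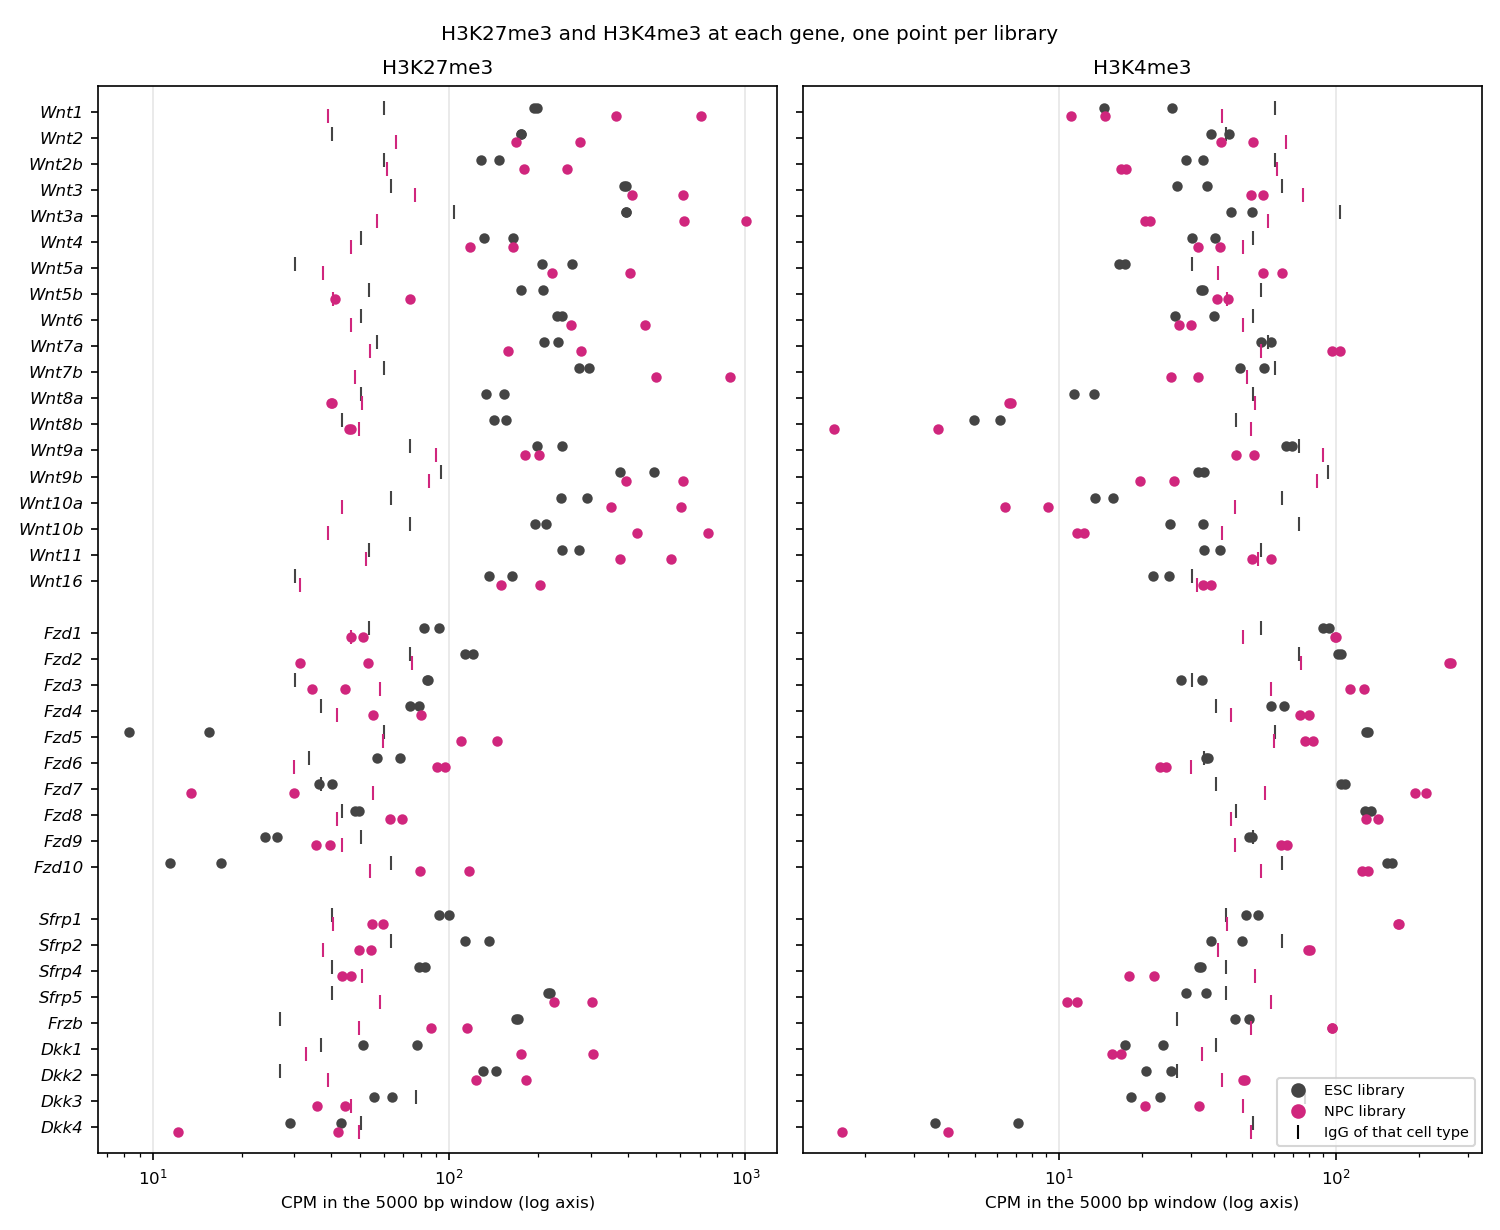
H3K27me3 (left) and H3K4me3 (right) in the window of each gene, in CPM on a log axis, with 1 point per library (ESC grey, NPC pink) and the IgG library of the same cell type as a tick. H3K27me3 of the ligands lies to the right of IgG in most rows, while H3K4me3 reaches above 100 CPM chiefly at Frizzled genes, besides Wnt7a and Sfrp1.

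In NPC, H3K27me3 was above IgG at 17 ligands, 5 receptors and 6 antagonists (15% of all windows), and H3K4me3 at 3 ligands (Wnt5a, Wnt7a and Wnt16), 9 receptors (all but Fzd6) and 4 antagonists (Sfrp1, Sfrp2, Frzb and Dkk2), against 38.9% of all windows. Both marks were above IgG at 4 of the 38 genes in ESC (2.2% of all windows) and at 11 in NPC (3.99%). Of the 11, 3 had both marks in ESC already (Fzd4, Sfrp1 and Frzb), 5 had H3K27me3 alone (Wnt5a, Wnt7a, Wnt16, Sfrp2 and Dkk2) and 3 had H3K4me3 alone (Fzd5, Fzd8 and Fzd10). The 5 were thus ligands and antagonists, and the 3 were receptors. These are crossings of the IgG limit, and their shares over all windows were not counted. At Fzd8 the change of H3K27me3 itself was not called (0.68 ± 0.38). Fzd1 had both in ESC and H3K4me3 alone in NPC, Fzd3 went from H3K27me3 to H3K4me3, and Fzd9 from neither mark to H3K4me3. H3K27me3 alone was seen at 26 genes in ESC (20% of all windows) and 17 in NPC (11%), the 17 being among the 26 and holding 14 ligands. H3K4me3 alone was seen at 5 genes in each (33.7% and 34.9%), and neither mark at 3 and 5 (44.1% and 50.1%). Wnt8a, Wnt8b and Sfrp4 had neither mark above IgG in NPC, and Dkk3 and Dkk4 had neither in both cell types. These classes depend on the IgG rule: at a log2 ratio of at least 2, or with library totals, 0 genes had both marks in either cell type, and 2 (ESC) and 0 (NPC) did with each mark fitted with IgG alone. Without NPC replicate 2, 12 genes were above IgG for H3K4me3 and 21 for H3K27me3 in NPC.

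SUZ12 was lower in NPC at most of these genes. It fell at 26 of 38 and rose at 0, while 13.1% of all windows tested fell and 2.97% rose (16.1% in either direction). At an unadjusted p below 0.05, 0 members were higher and 28 lower, and DESeq2 called 0 rises and 22 falls. The falls comprised 16 of 19 ligands, 5 of 10 receptors and 5 of 9 antagonists. Of the 26, 13 were at genes with SUZ12 above IgG in at least 1 cell type, and 13 at genes below that rule in both. This split was not counted over all windows. The median log2 change was -1.32 over the ligands, -0.66 over the receptors and -0.72 over the antagonists, against 0.07 over all windows. Among the windows with H3K27me3 above IgG in ESC, 38.6% of 5093 tested fell (median -0.44), and 24 of the 30 members among them did (median -1.25). The ligands that did not pass were Wnt2, Wnt8a and Wnt8b, with values of -0.64 ± 0.26, -0.54 ± 0.30 and -0.54 ± 0.32.

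Wnt7a (chr6:91408870-91413869), a ligand of neural progenitors and synapses, had SUZ12 levels of 196 and 244 CPM in the ESC libraries and 66.5 and 75.8 CPM in the NPC libraries. Wnt11, a ligand of morphogenetic movements (chr7:98832612-98837611), had 275 and 287 CPM in ESC and 79.4 and 116 CPM in NPC. The NPC libraries lay below both ESC libraries at each of these genes, with log2 changes of -1.86 ± 0.24 (adjusted p = 4.92e-13) and -1.78 ± 0.23 (adjusted p = 8.48e-13). Wnt3a had the highest SUZ12 level of all members in ESC, 402 and 366 CPM in ESC and 187 and 125 CPM in NPC, and Wnt5a, the main ligand of the polarity branch, had 252 and 191 CPM in ESC and 77.3 and 98.1 CPM in NPC. Their falls were -1.56 ± 0.22 (adjusted p = 1e-10) and -1.61 ± 0.23 (adjusted p = 1.59e-10). At Wnt3a the log2 ratio of SUZ12 to IgG in ESC was 2.24 ± 0.86, which was not called as above IgG. Among the receptors, Fzd1 (chr5:4755717-4760716) had 185 and 198 CPM in ESC and 64.4 and 46.8 CPM in NPC, and Fzd2 (chr11:102601931-102606930) had 222 and 255 CPM in ESC and 88.0 and 100.3 CPM in NPC. Again the groups did not overlap, and the changes were -2.02 ± 0.25 (adjusted p = 3.03e-14) and -1.58 ± 0.23 (adjusted p = 2.48e-10). Fzd8 fell by 1.42 ± 0.25, Fzd4 by 1.06 ± 0.24 and Fzd3 by 0.82 ± 0.28, and the last shares part of its window with Fbxo16, 4237 bp away. Fzd5, Fzd6, Fzd7, Fzd9 and Fzd10 did not pass, with values from -0.49 (Fzd7) to 0.11 (Fzd9). The antagonist Frzb (chr2:80444897-80449896), which binds ligands outside the cell, had 159 and 172 CPM in ESC and 51.5 and 40.1 CPM in NPC, and Sfrp5 (chr19:42199753-42204752) had 147 and 122 CPM in ESC and 60.1 and 64.6 CPM in NPC. Frzb had the largest fall of all 38 genes in this fit, -2.09 ± 0.25 (adjusted p = 3.3e-14), and Sfrp5 fell too, -1.38 ± 0.24 (adjusted p = 3.07e-07). Dkk1 and Dkk4, inhibitors at the LRP co-receptor, had values of 0.29 ± 0.26 and 0.18 ± 0.36 and did not pass.

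SUZ12 was above IgG in ESC at 14 of the genes (7 ligands, 5 receptors and 2 antagonists, 5.21% of all windows) and in NPC at 0 (0% of all windows). In NPC 5 passed at an unadjusted p below 0.05. With SUZ12 fitted with IgG alone, 5 genes were above IgG in NPC (1.56% of all windows) and 27 in ESC (11.2%). Leaving out ESC SUZ12 replicate 1 left 2 genes above IgG in ESC and leaving out replicate 2 left 8. The fall was called at 22 to 26 genes when each library was left out. Of the 26 falls, 22 held under each of 3 ways to scale the libraries in edgeR and with DESeq2, and 10 under every alternative run (Wnt4, Wnt5a, Wnt7a, Wnt9a, Wnt11, Fzd1, Fzd2, Fzd8, Sfrp5 and Frzb). With library totals the median of all windows moved from 0.07 to 0.32 and 54.1% in place of 18.4% of all called windows were higher in NPC, while 22 members fell and 0 rose. At a minimum count of 30, 15 members fell and 2 rose, and Fzd5 was then higher by 0.78 (adjusted p = 0.00779). In a joint fit of all antibodies 12 fell, without Wnt3a. The top 1% of windows held 9.22% and 10.5% of the counts in the ESC SUZ12 libraries and 4.92% and 5.04% in the NPC libraries. This difference in how concentrated the libraries were moves with the fall, and its part in it was not tested.

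**Figure D2:**
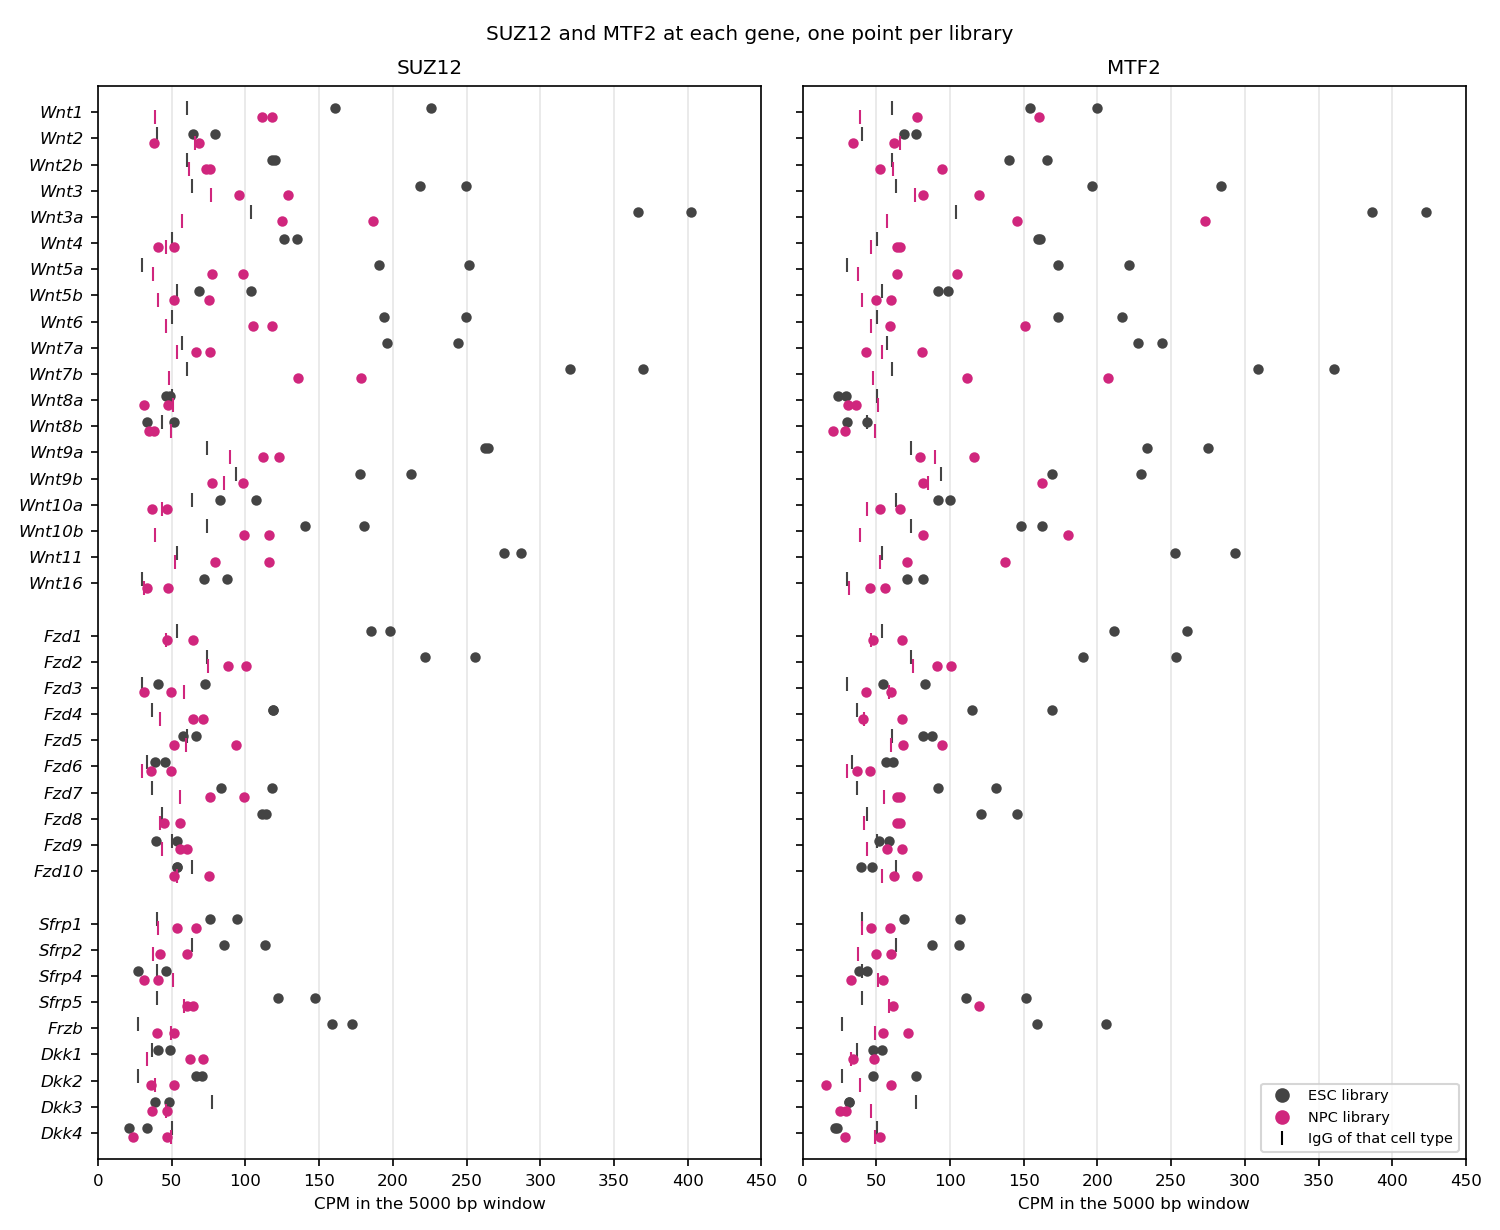
SUZ12 (left) and MTF2 (right) in CPM in the window of each gene, 1 point per library (ESC grey, NPC pink), with the IgG library of the same cell type as a tick. For SUZ12 the grey points of Wnt3a reach 402 CPM and the pink points stay at or below 187 CPM, and for MTF2 the pink points of several ligands lie far apart.

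MTF2 was called at fewer genes than SUZ12, although its values were of similar size. For each of these antibodies 35 of 38 values lay below 0. The medians were -1.03 (MTF2) and -1.05 (SUZ12), against 0.07 over all windows for each. MTF2 fell at 10 of 38 genes and rose at 0, against 8.89% and 3.28% of all windows (12.2% in either direction). All 10 were among the 26 that fell for SUZ12. The 10 were Wnt4, Wnt5b and Wnt7a, then Fzd1, Fzd4 and Fzd8, and Sfrp1, Sfrp2, Frzb and Dkk2. Of these falls, 7 were at genes with MTF2 above IgG in at least 1 cell type and 3 were not. In ESC, MTF2 was above IgG at 19 genes (10 ligands, 6 receptors and 3 antagonists, 8.55% of all windows), but at 3 (Wnt4, Fzd1 and Frzb; 1.87% of all windows) without ESC replicate 1, and in NPC at 0 (0% of all windows, 4 members at an unadjusted p below 0.05). Fzd1 had MTF2 levels of 261 and 211 CPM in the ESC libraries and 47.8 and 67.7 CPM in the NPC libraries, and Fzd4, a receptor with roles in blood vessel growth, had 169 and 115 CPM in ESC and 41.0 and 67.7 CPM in NPC. Neither gene's groups overlapped, with changes of -2.30 ± 0.64 (adjusted p = 0.00819) and -1.67 ± 0.45 (adjusted p = 0.00714). Wnt7a had 244 and 228 CPM in ESC and 43.2 and 81.2 CPM in NPC, Frzb 206 and 159 CPM in ESC and 54.6 and 71.6 CPM in NPC and Wnt4 159.8 and 161 CPM in ESC and 66.0 and 63.8 CPM in NPC. All NPC values of these genes were below the ESC values, and they fell by 2.17 ± 0.63, 1.81 ± 0.54 and 1.57 ± 0.49 on the log2 scale. Dkk2 overlapped, with 76.9 and 48.0 CPM in ESC and 15.9 and 59.9 CPM in NPC, although it was called (-1.004 ± 0.32, adjusted p = 0.0238).

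The NPC MTF2 libraries differed from each other: Wnt3a had 146 and 273 CPM, Wnt1 77.4 and 161 CPM and Wnt10b 81.9 and 179.8 CPM, and the top 1% of windows held 3.04% and 7.01% of their counts against 10.5% and 8.41% in ESC. The part of this difference in the MTF2 results was not tested. Without ESC replicate 1 or without NPC replicate 1, 0 members fell. DESeq2 called 14 falls and 0 rises, and at an unadjusted p below 0.05, 23 members were lower and 0 higher. Under 3 scalings in edgeR 9 of the 10 held (all but Dkk2), and with DESeq2 6 of these did (Wnt4, Wnt7a, Fzd1, Fzd4, Fzd8 and Frzb).

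JARID2 was close to the level of IgG at these genes. It fell at 1 gene, Wnt3a, and rose at 0, against 0.769% and 0.0839% of all windows (0.853% in either direction), and it was above IgG at 0 genes in ESC and 0 in NPC (0% of all windows in each), also at an unadjusted p below 0.05 and when fitted with IgG alone. At that p, 2 members were higher and 8 lower in NPC, and DESeq2 called 0. The log2 change was below 0 at 18 of 19 ligands, 6 of 10 receptors and 5 of 9 antagonists. Its medians were -0.42, -0.09 and -0.005 in these classes, against -0.004 over all windows. The NPC libraries agreed within sampling noise (0.998 for chi-square per degree of freedom), so they were summed and counted as 1 sample. The NPC SUZ12 and ESC JARID2 pairs, at 1.03 and 1.02, were kept as 2 libraries each. The spread behind the JARID2 calls thus comes from the 2 ESC libraries alone, and the call at Wnt3a holds no spread between NPC libraries. With the NPC libraries kept apart 0 members fell. Wnt3a had 138 and 102 CPM in the ESC libraries and 52.8 and 79.5 CPM in the NPC libraries, which do not overlap, and a change of -0.93 ± 0.26 (adjusted p = 0.0346). With DESeq2 and with a joint fit of all antibodies it did not pass either, among other settings. The ESC median of JARID2 was 58.6 CPM over the members, against 39.3 CPM over all windows and an IgG median of 50.3 CPM. The change of JARID2 was higher than that of MTF2 at 1 gene, Dkk2, by 1.78 ± 0.49 on the log2 scale (adjusted p = 0.0379 for the interaction, 1.03% of all windows higher), and this was lost without either ESC JARID2 library, without ESC or NPC replicate 1 of MTF2 and with library totals. No gene was lower by this test, where 9 of 38 were higher and 0 lower at an unadjusted p below 0.05, and no other tool was run.

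**Figure D3:**
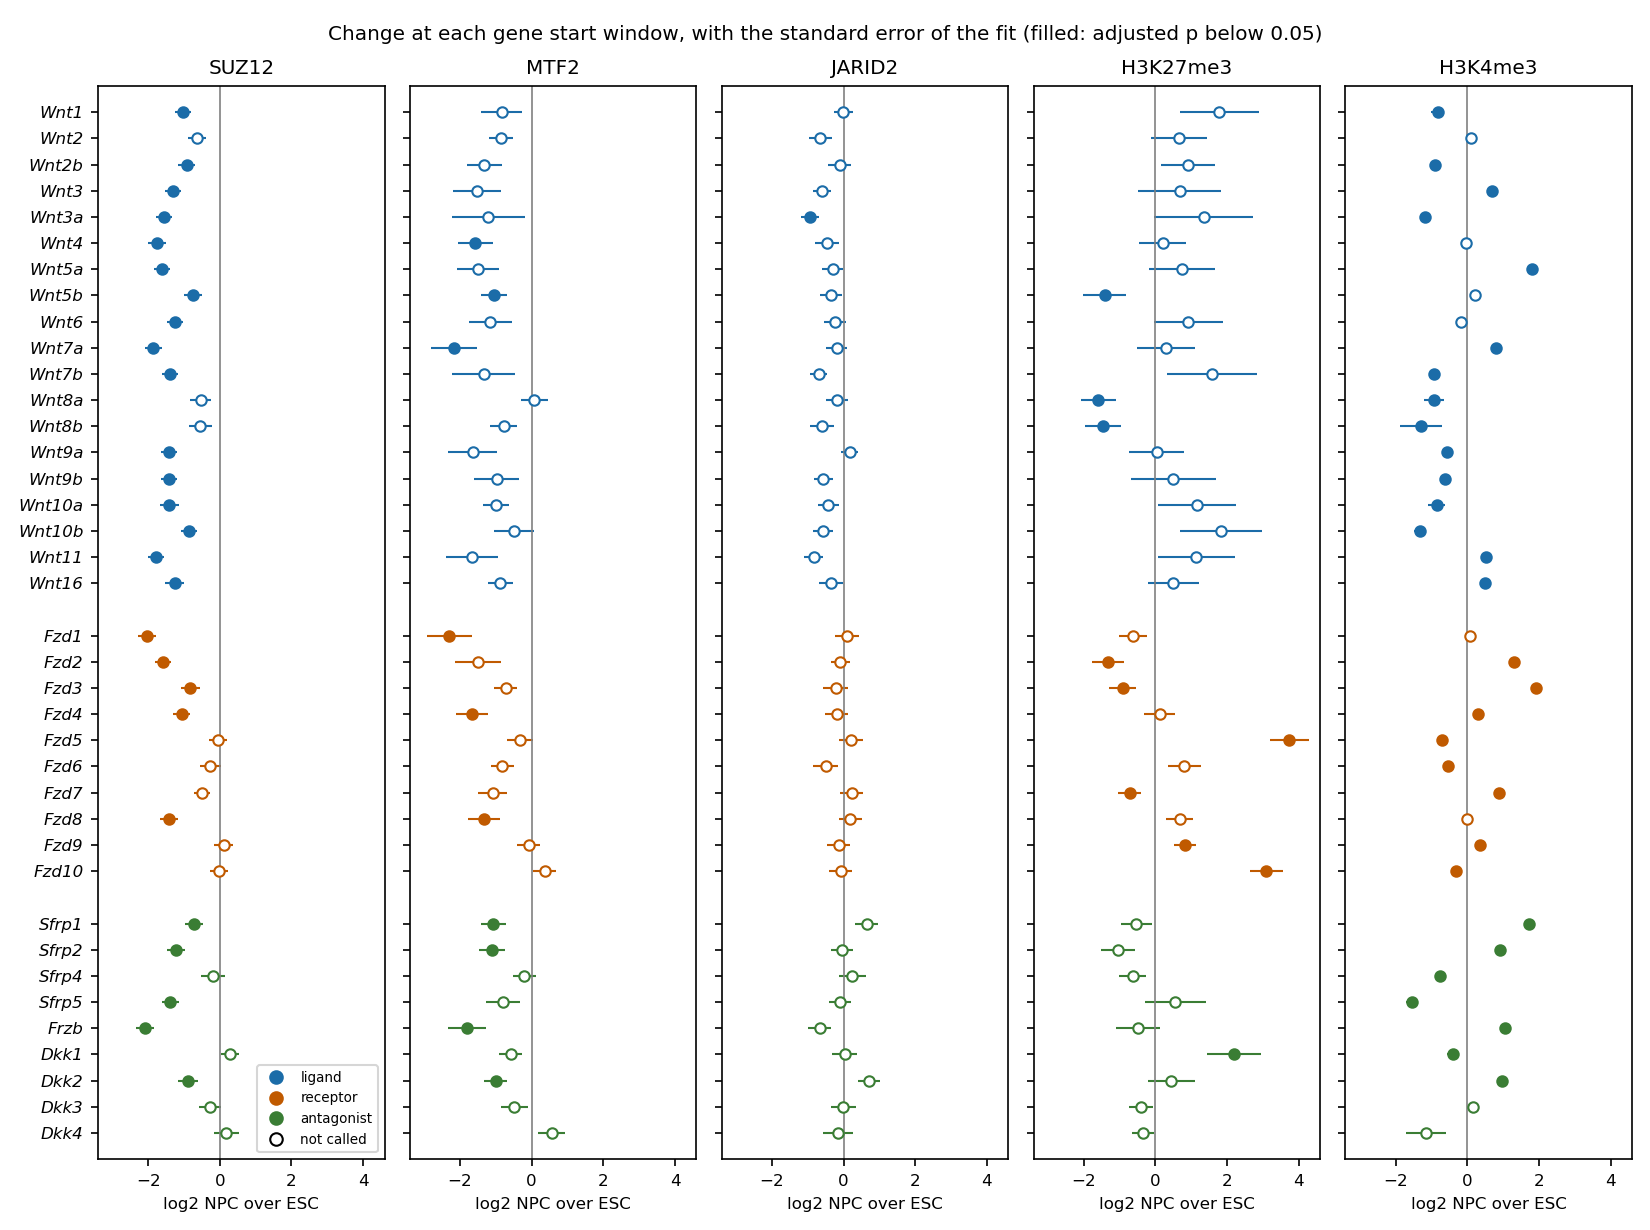
Log2 change NPC over ESC for each gene and antibody, with the SE of the fit as a bar, ligands in blue, receptors in orange and antagonists in green, and filled points for called genes. The filled points of SUZ12 all lie left of 0, while those of H3K4me3 lie on both sides in each class.

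H3K4me3 moved in both directions within each class. It rose at 14 of 38 genes and fell at 16, where 26.7% and 29.2% of all windows did (55.9% in either direction). Of the ligands 5 rose (Wnt3, Wnt5a, Wnt7a, Wnt11 and Wnt16) and 10 fell (Wnt1, Wnt2b, Wnt3a, Wnt7b, Wnt8a, Wnt8b, Wnt9a, Wnt9b, Wnt10a and Wnt10b). Of the receptors 5 rose (Fzd2, Fzd3, Fzd4, Fzd7 and Fzd9) and 3 fell (Fzd5, Fzd6 and Fzd10), and of the antagonists 4 rose (Sfrp1, Sfrp2, Frzb and Dkk2) and 3 fell (Sfrp4, Sfrp5 and Dkk1). Among these genes the gains and losses differed in their level. Of the 14 rises, 12 were at genes with H3K4me3 above IgG in at least 1 cell type, while of the 16 falls 14 were at genes below that rule in both. The same split was not counted over all windows, so it cannot be called particular to these genes. The falls also depend on the scaling more than the rises. With scaling factors from background windows alone the median of all windows moved from -0.02 to 0.30, and then 12 members rose and 4 fell. Under 3 scalings in edgeR and with DESeq2 12 rises and 3 falls held, the falls being Wnt3a, Wnt10b and Sfrp5.

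Wnt5a (chr14:28508905-28513904) had H3K4me3 levels of 17.4 and 16.6 CPM in the ESC libraries and 54.5 and 63.9 CPM in the NPC libraries, and IgG stood at 30.2 CPM in ESC and 37.4 CPM in NPC. In CPM the mark passed from below to above IgG, and in the rescaled fit its log2 ratio to IgG was 0.03 in ESC and 1.59 in NPC. The change of 1.81 ± 0.12 (adjusted p = 6.34e-49) was the largest of the ligands. Wnt7a had 58.4 and 53.6 CPM in ESC and 104 and 96.7 CPM in NPC (0.79 ± 0.09, adjusted p = 3.38e-18), with no overlap and IgG at 57.0 CPM in ESC and 53.9 CPM in NPC. Wnt16, with the smallest change of the 3 ligands that came above IgG, had 25.0 and 21.8 CPM in ESC and 35.5 and 33.1 CPM in NPC (0.49 ± 0.13, adjusted p = 0.000514). Its IgG stood close by, at 30.2 CPM in ESC and 31.4 CPM in NPC. Its log2 ratio to IgG in NPC was 1.05, near the limit of 1. With library totals the call above IgG was lost at all 3 ligands, and with H3K4me3 fitted with IgG alone at Wnt16. Wnt3a (chr11:59288252-59293251), a ligand of the β-catenin branch and of the dorsal neural tube, had 49.7 and 41.7 CPM in ESC and 21.4 and 20.5 CPM in NPC, all below its IgG values of 104 CPM in ESC and 56.9 CPM in NPC. Its change was -1.18 ± 0.12 (adjusted p = 2.37e-20). Wnt7b, the close relative of Wnt7a, moved the other way, from 55.2 and 45.0 to 31.9 and 25.5 CPM (-0.92 ± 0.11, adjusted p = 2.58e-15), although its window shares reads with AU022754, 3071 bp away, and its call was lost with background factors. In a joint fit of all antibodies, which shares 1 estimate of the spread, 8 members rose and 5 fell, and the calls at Wnt7a, Wnt16, Wnt3a and Wnt7b were lost. Wnt2, Wnt4, Wnt5b and Wnt6 did not pass, with values from -0.17 (Wnt6) to 0.21 (Wnt5b).

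The receptors had the highest H3K4me3 of the classes, with a median over group means of 97.6 CPM in ESC and 109.6 CPM in NPC, against 31.3 and 28.7 CPM for the ligands. Fzd3 (chr14:65259964-65264963), a receptor needed for axon guidance and neural tube closure, had 32.9 and 27.6 CPM in the ESC libraries and 126 and 113 CPM in the NPC libraries. Fzd2 had 105 and 102 CPM in ESC and 255 and 260.3 CPM in NPC, and Fzd7 (chr1:59479647-59484646), a receptor of pluripotent cells, had 105 and 108 CPM in ESC and 210.5 and 192 CPM in NPC. In each of the 3 both NPC libraries were above both ESC libraries, and they rose by 1.91 ± 0.10 (adjusted p = 1.91e-84), 1.30 ± 0.08 (adjusted p = 5.57e-53) and 0.89 ± 0.08 (adjusted p = 6.43e-26). Fzd9 came above IgG in NPC with 48.7 and 50.0 CPM in ESC and 66.5 and 63.1 CPM in NPC (0.37 ± 0.09, adjusted p = 0.000268), a rise that was lost with background factors. Fzd5 (chr1:64735251-64740250), a receptor of eye and placenta, had 131 and 128 CPM in ESC and 77.2 and 82.7 CPM in NPC, and Fzd6 34.5 and 33.97 CPM in ESC and 23.3 and 24.3 CPM in NPC. These groups did not overlap either, and the falls were -0.70 ± 0.08 (adjusted p = 6.7e-16) and -0.53 ± 0.13 (adjusted p = 0.000158), both lost with background factors and in the joint fit. Fzd10 fell by 0.31 ± 0.08, but its value turned to 0.02 with background factors. Fzd1 and Fzd8 did not pass, at 0.09 ± 0.08 and 0.01 ± 0.08.

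Among the antagonists, Sfrp1 (chr8:23409002-23414001), which can bind both ligand and receptor, had H3K4me3 levels of 52.4 and 47.5 CPM in the ESC libraries and 167 and 169 CPM in the NPC libraries. Frzb had 48.4 and 43.4 CPM in ESC and 97.1 and 96.9 CPM in NPC, and Sfrp2 and Dkk2, which came above IgG in NPC, had 45.9 and 35.3 CPM in ESC and 79.3 and 80.9 CPM in NPC and 25.5 and 20.7 CPM in ESC and 46.3 and 46.9 CPM in NPC. In all 4 the NPC libraries were the higher ones, with changes of 1.72 ± 0.09 (adjusted p = 1.33e-79), 1.04 ± 0.09 (adjusted p = 5.86e-29), 0.92 ± 0.09 (adjusted p = 1.25e-21) and 0.96 ± 0.12 (adjusted p = 9.61e-15). Sfrp5 went the other way, 34.01 and 28.7 CPM in ESC and 11.6 and 10.7 CPM in NPC, and so did Sfrp4, 32.0 and 32.6 CPM in ESC and 22.1 and 17.9 CPM in NPC, which shares its window with Epdr1, 3344 bp away. Their changes were -1.55 ± 0.17 (adjusted p = 7.36e-20) and -0.76 ± 0.14 (adjusted p = 3.6e-07), and the second was lost with background factors. The rises of Wnt5a, Fzd2, Fzd3, Fzd7, Sfrp1, Sfrp2, Frzb and Dkk2 and the fall of Sfrp5 held under every alternative run. Fzd3, which shares part of its window with Fbxo16, was not part of the run on non-overlapping windows. Dkk3 and Dkk4 did not pass, and Dkk4 had 7.12 and 3.59 CPM in ESC and 3.98 and 1.66 CPM in NPC, the lowest level among the antagonists.

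H3K27me3 was called at few of these genes, with the largest values at 2 receptors. It rose at 4 of 38 genes (Fzd5, Fzd9, Fzd10 and Dkk1) and fell at 6 (Wnt5b, Wnt8a, Wnt8b, Fzd2, Fzd3 and Fzd7), against 22.9% and 23.5% of all windows (46.4% in either direction). The count of rises was 20 at a minimum count of 30 and 15 in the joint fit. In these 2 settings 2609 of 9329 and 7926 of 23896 windows tested rose. Fzd5 had 8.28 and 15.4 CPM in the ESC libraries and 109.7 and 145 CPM in the NPC libraries. Fzd10 (chr5:128598606-128603605) had 11.4 and 17.0 CPM in ESC and 79.8 and 117 CPM in NPC, in a window that shares most of its bases with 5930412G12Rik, 418 bp away. At both genes the NPC libraries were far above the ESC libraries, which lay below IgG (60.3 and 63.7 CPM), and the rises were 3.73 ± 0.54 (adjusted p = 1.06e-09) and 3.10 ± 0.46 (adjusted p = 1.47e-09). Without ESC replicate 1 the values were 3.31 and 2.82 with adjusted p = 0.111 and 0.0986, and over the other alternatives both stayed below 0.05. Dkk1, an inhibitor that blocks the LRP co-receptor, had 77.7 and 51.0 CPM in ESC and 175 and 306 CPM in NPC and rose by 2.191 ± 0.75 (adjusted p = 0.0103), a call that ended when either ESC library was left out and with background factors. Fzd9 had 23.8 and 26.3 CPM in ESC and 35.5 and 39.5 CPM in NPC. In CPM these were below IgG in both cell types (50.3 CPM in ESC and 43.4 CPM in NPC). The rescaled fit gave log2 ratios to IgG of -0.40 in ESC and 0.79 in NPC, neither called as above.

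The largest log2 falls of H3K27me3 were at Wnt8a and Wnt8b. Wnt8a, a ligand of early posterior development, had 133 and 153 CPM in ESC and 39.9 and 40.1 CPM in NPC, and Wnt8b (chr19:44490972-44495971), a ligand of the forebrain, had 155 and 142 CPM in ESC and 46.6 and 45.9 CPM in NPC. In CPM the NPC values were below IgG (50.9 and 49.4 CPM). The rescaled fit put them above IgG, at log2 ratios of 0.63 and 0.88 that were not called. The changes from ESC to NPC were -1.60 ± 0.49 (adjusted p = 0.00442) and -1.46 ± 0.51 (adjusted p = 0.0128). H3K4me3 fell at both as well, from 13.4 and 11.3 to 6.74 and 6.65 CPM at Wnt8a and from 6.17 and 4.97 to 3.68 and 1.54 CPM at Wnt8b, all below IgG. Fzd2 had 120.1 and 113 CPM in ESC and 53.2 and 31.2 CPM in NPC (-1.33 ± 0.44, adjusted p = 0.00859) and Fzd3 83.9 and 84.9 CPM in ESC and 44.3 and 34.4 CPM in NPC (-0.91 ± 0.37, adjusted p = 0.0347), and neither overlapped. Fzd7 had 36.2 and 40.1 CPM in ESC and 29.9 and 13.4 CPM in NPC, against IgG at 36.9 CPM in ESC and 55.4 CPM in NPC, and its call was lost under 9 of 13 alternatives. Without ESC replicate 1 no member was called in either direction, and without ESC replicate 2 the 2 called were Fzd5 and Fzd10. Under 3 scalings in edgeR Fzd5 and Fzd10 rose and Wnt5b, Wnt8a, Wnt8b, Fzd2 and Fzd3 fell, and of these Fzd3 was lost with DESeq2, while the median of all windows ran from 0.12 to -0.36 with background factors.

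The other ligands had H3K27me3 in both cell types at levels that differed between the NPC libraries. Wnt1 had 193 and 198 CPM in ESC and 365 and 706 CPM in NPC, Wnt7b 295 and 273 CPM in ESC and 499.9 and 884 CPM in NPC and Wnt11 274 and 241 CPM in ESC and 376 and 562 CPM in NPC. At each of these the NPC libraries were above both ESC libraries, and none passed: 1.78 ± 1.10 (adjusted p = 0.174), 1.59 ± 1.25 (adjusted p = 0.292) and 1.15 ± 1.06 (adjusted p = 0.375). NPC replicate 2 had the higher level at 18 of 19 ligands and held 19.6% of its counts in the top 1% of windows, against 11.01% in replicate 1 and 6.62% and 7.17% in the ESC libraries. The NPC pair also had the largest chi-square per degree of freedom of all pairs, 6.67. The part of this difference in these values was not tested. Without NPC replicate 1, 24 members rose and 8 fell, and without NPC replicate 2, 5 rose and 11 fell. The ligands contributed 15 of the first rises and 2 of the second, so their count rests on which NPC library is used. At Wnt7a the value of 0.29 became -0.75 without NPC replicate 2 (adjusted p = 0.0475).

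Set side by side, the marks moved in opposite directions at 6 genes where both were called (15.8% of the members), as at 17.2% of all 18442 windows tested for both. H3K4me3 rose and H3K27me3 fell at Fzd2, Fzd3 and Fzd7, and H3K4me3 fell and H3K27me3 rose at Fzd5, Fzd10 and Dkk1. With background factors none of the last 3 falls of H3K4me3 was called, and the value at Fzd10 turned to 0.02. The marks moved together at 3 (7.89% of the members, 7.82% of all windows), with both falling at Wnt8a and Wnt8b and both rising at Fzd9. Frizzled genes stood on both sides, and H3K4me3 at Fzd5 and Fzd10 was above IgG in NPC as well. Of the 3 with less H3K27me3, Fzd3 alone had it above IgG in ESC. At the remaining 29 genes at most 1 mark was called. Of the 16 genes where H3K4me3 fell, 13 had an H3K27me3 value above 0 (median 1.03), and of the 14 where it rose 8 did (median 0.21). Over all windows 74.7% of those where H3K4me3 fell (median 0.94) and 52.3% of those where it rose (median 0.06) did, and the median H3K27me3 change of the ligands went from 0.68 to -0.27 without NPC replicate 2. The H3K4me3 falls at Wnt8b and Dkk1 were lost under 6 of 12 and 10 of 13 alternatives. Most of these H3K27me3 values did not pass the test themselves.

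**Figure D4:**
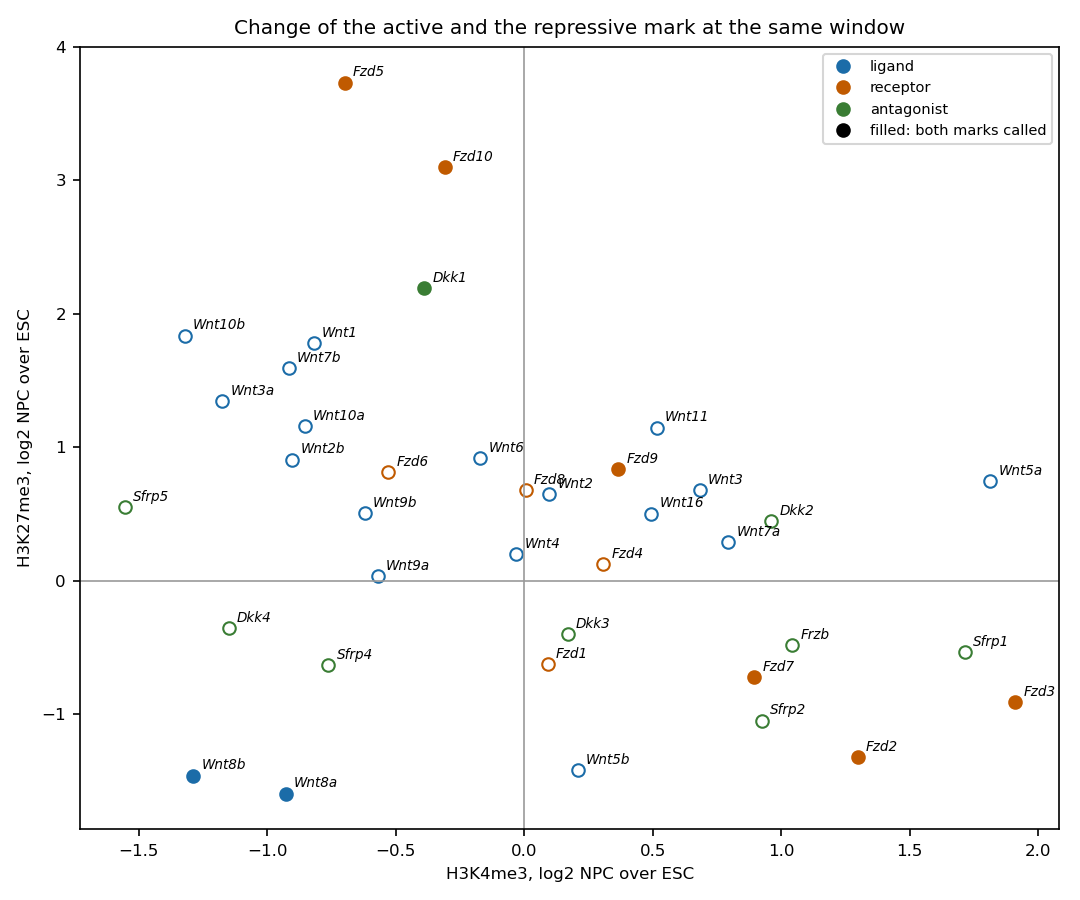
Log2 change of H3K27me3 against that of H3K4me3 for the 38 genes, ligands in blue, receptors in orange and antagonists in green, filled where both marks were called. Fzd5, Fzd10 and Dkk1 lie at the upper left and Fzd2, Fzd3 and Fzd7 at the lower right.

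SUZ12 and its product H3K27me3 did not change alike at part of these genes. The test of the difference between their changes, an interaction over 8 libraries, was higher for H3K27me3 at 13 genes and lower at 0 (19 and 0 at an unadjusted p below 0.05, with no other tool run), against 16.7% and 14.2% of all windows. They were Wnt1, Wnt3a, Wnt4, Wnt5a, Wnt7a, Wnt7b, Wnt10a, Wnt10b and Wnt11, then Fzd5, Fzd8 and Fzd10, and Dkk1. The difference was 3.77 ± 0.66 (adjusted p = 2.86e-06) at Fzd5, 3.12 ± 0.59 (adjusted p = 1.87e-05) at Fzd10 and 2.09 ± 0.58 (adjusted p = 0.00358) at Fzd8. With library totals, and without NPC H3K27me3 replicate 2, 20 members were higher and 3 lower. Fzd5, Fzd10 and Fzd8 held under every alternative run. The 9 ligands and Dkk1 did not: 3 genes remained with background factors and when any ESC library or any NPC SUZ12 library was left out, and 27 were called without NPC H3K27me3 replicate 1. Fzd8 came above IgG for H3K27me3 in NPC, with 49.7 and 47.9 CPM in ESC and 63.2 and 69.4 CPM in NPC, while its SUZ12 level was 114 and 111 CPM in ESC and 55.8 and 44.6 CPM in NPC. At Fzd5, SUZ12 stood at 66.5 and 57.4 CPM in ESC and 51.5 and 93.6 CPM in NPC and did not pass (-0.05 ± 0.25), beside the rise of H3K27me3. SUZ12 was not above IgG at Fzd5 or Fzd10 in either cell type. Its log2 ratios to IgG there were 0.40 and 0.10 in ESC and 0.36 and 0.31 in NPC. At these genes the test thus sets H3K27me3 against SUZ12 near the level of IgG, while at Fzd8 SUZ12 was above IgG in ESC. Of the 26 genes where SUZ12 fell, H3K27me3 fell at 3, rose at 0 and was not called at 23, and H3K4me3 rose at 12 and fell at 9. Of all windows where SUZ12 fell, 13.9% fell, 7.44% rose and 78.6% were not called for H3K27me3, and 47.7% rose and 23% fell for H3K4me3.

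The table holds 4 pairs of Wnt genes that lie next to each other with no other TSS of the table between them: Wnt1 and Wnt10b on chromosome 15 (11.7 kb between starts), Wnt3a and Wnt9a (16.2 kb) and Wnt3 and Wnt9b (24.4 kb) on chromosome 11, and Wnt6 and Wnt10a on chromosome 1 (20.1 kb). Wnt1 and Wnt10b both had lower H3K4me3 in NPC by the fit, with 25.6 and 14.6 CPM in ESC and 14.7 and 11.04 CPM in NPC at Wnt1 and 33.2 and 25.1 CPM in ESC and 11.6 and 12.3 CPM in NPC at Wnt10b. The libraries overlap at Wnt1 and not at Wnt10b, and all lie below IgG. The changes were -0.82 ± 0.18 (adjusted p = 2.53e-05) and -1.32 ± 0.16 (adjusted p = 7.46e-15), and that of Wnt1 was lost with DESeq2, with background factors and without ESC replicate 1. Wnt3 and Wnt9b parted: Wnt3, a ligand of the primitive streak, had 34.2 and 26.8 CPM in ESC and 54.5 and 49.3 CPM in NPC and Wnt9b 33.5 and 31.8 CPM in ESC and 26.0 and 19.6 CPM in NPC. Wnt3 rose (0.68 ± 0.11, adjusted p = 2.12e-09) and Wnt9b fell (-0.62 ± 0.14, adjusted p = 1.95e-05), although the second was lost with background factors, and neither was above IgG. H3K27me3 was at 394 and 389 CPM in ESC and 412 and 616 CPM in NPC at Wnt3, with no overlap, and at 492 and 377 CPM in ESC and 396 and 616 CPM in NPC at Wnt9b, with overlap, and neither change passed. Wnt3a and Wnt9a both lost SUZ12 (-1.56 ± 0.22 and -1.42 ± 0.22). Their H3K27me3 in NPC differed, with 619.6 and 1008 CPM at Wnt3a and 179.6 and 201 CPM at Wnt9a, from ESC levels of 394 and 395 and 240.3 and 198 CPM, and neither change passed. Wnt6 and Wnt10a had 240.3 and 232 CPM in ESC and 258 and 459 CPM in NPC and 291 and 238 CPM in ESC and 351 and 608 CPM in NPC for H3K27me3, and H3K4me3 fell at Wnt10a (-0.85 ± 0.23, adjusted p = 0.000706, lost with background factors) while Wnt6 did not pass (-0.17 ± 0.13). No difference between neighbours was tested.

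**Figure D5:**
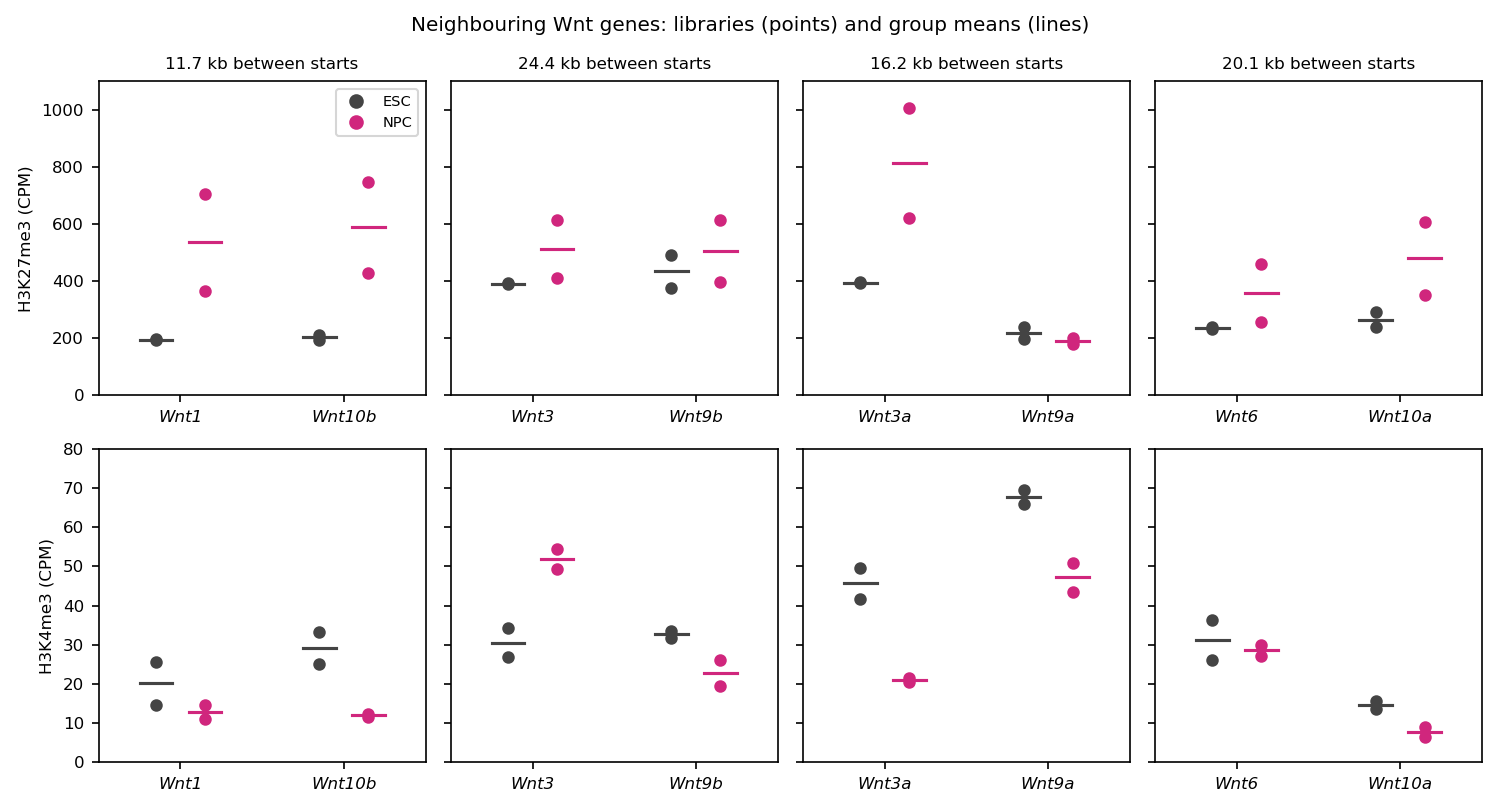
H3K27me3 (top) and H3K4me3 (bottom) in CPM at the 4 pairs of neighbouring Wnt genes, with 1 point per library (ESC grey, NPC pink) and a line at the mean of each group. H3K4me3 of Wnt3 is higher in NPC and that of its neighbour Wnt9b lower.

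The rest of the pathway, a list of 75 other genes, gives the surroundings of these results. SUZ12 fell at 22 and rose at 1 of 74 tested (13.1% and 2.97% of all windows), MTF2 fell at 15 and rose at 1 of 74 (8.89% and 3.28%), and JARID2 was called at 0 of 74 by edgeR (5 higher and 2 lower at an unadjusted p below 0.05; DESeq2 calls were not counted for this list). H3K27me3 rose at 22 and fell at 7 of 73 (22.9% and 23.5% of all windows), and H3K4me3 rose at 31 and fell at 18 of 74 (26.7% and 29.2%). The strongest SUZ12 falls were at Myc, a target of β-catenin and a growth regulator (-2.32 ± 0.24), and at Lgr5, a receptor for R-spondins (-1.84 ± 0.24). Lgr5 was also among the MTF2 falls (-1.85 ± 0.47), together with the polarity gene Vangl1 (-1.47 ± 0.35). Notum, an enzyme that inactivates ligands, was the gene where both subunits rose, by 0.65 ± 0.22 for SUZ12 and 1.16 ± 0.42 for MTF2. There H3K27me3 rose by 4.65 ± 1.10 and H3K4me3 fell by 2.48 ± 0.09 on the log2 scale. Among the targets of β-catenin, H3K4me3 fell at 3 (Cdx1, Sp5 and T) and rose at 2 (Ccnd1 and Myc) of 6, and Cdx1, a regulator of posterior identity, fell by 3.54 ± 0.16. Apart from Cdx1 and Myc these targets were named after their values were seen. In the nucleus, H3K27me3 rose at 8 of 12 genes and fell at 1 (Bcl9, -1.52 ± 0.31), with 3.17 ± 0.40 at the co-repressor Tle1. Over all windows 22.9% rose. Mean levels at the 8 genes ran from 2.83 (Pygo2) to 95.0 CPM (Lef1) in ESC and from 14.6 to 403 CPM in NPC. At Tle1 they were 6.69 CPM in ESC and 43.4 CPM in NPC. The IgG median over all windows was 40.2 CPM in ESC and 41.9 CPM in NPC. Among the cytoplasmic components, H3K4me3 rose at 13 and fell at 2 of 21, and H3K27me3 rose at 7 and fell at 0 of 20. Those 7 genes had H3K27me3 means from 6.46 to 26.3 CPM in ESC and from 16.8 to 159 CPM in NPC. Whether the genes of this list lie above IgG or keep their calls under the alternatives was not examined. No H3K27me3 call at the ligands, receptors and antagonists held under every alternative run. The planar polarity genes had 4 rises and 2 falls of H3K4me3 among 8, with 1.36 ± 0.09 at Vangl2, and 0 rises and 3 falls of H3K27me3 among 7. For the R-spondin axis, SUZ12 fell at 4 of 9 and H3K4me3 rose at 4 and fell at 3 of 9, and for the 7 co-receptors SUZ12 fell at 1.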

How the data were processed

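The data are the read counts that the authors deposited for 24467 windows of 5000 bp around TSSs in 22 CUT&RUN libraries, as raw counts per window. Per the submitters' processing notes, Bowtie2 2.3.4.3, Picard 2.19 and build mm10 were used. The counting program was not given in the sources used here, and neither was the treatment of duplicates. The deposited counts are of whole reads, and Drosophila spike-in reads, which the labels' protocols mention, were not used here, so a change that affects all windows alike cannot be seen.

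Counts were tested as deposited with edgeR 4.0.16 (R 4.3.3): TMM scaling, filterByExpr at a minimum count of 10, quasi-likelihood tests over all windows, Benjamini-Hochberg adjustment and a threshold of 0.05, with 1 fit per antibody, 1 joint fit for the ratio to IgG and interaction fits for differences between antibodies. The SE was taken from the log2 change and its F statistic. CPM were computed on the library total. NPC JARID2 libraries were summed. Where nothing else marks replicates as separate cultures, p-values measure the spread between these libraries. The procedure was tested on simulated data. Alternatives were DESeq2 1.42.0, other scalings, filters, windows and fits, a replicate block, and each library left out. Background factors are TMM factors from windows at or below IgG in both cell types.

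Values per library were given for up to 2 called genes of smallest p per antibody, class and direction, for genes with H3K4me3 above IgG in 1 cell type, for genes with both marks in 1 cell type, and for neighbouring Wnt genes. Other genes were named beside counts. The members, gene lists and markers were chosen with earlier results of these data known. Promoters and their coordinates are from RefSeq, GRCm38.p6, which is mm10, and none was printed for genes on chromosome 18.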

Additional observations from a re-analysis of the deposited data

How the results depend on the processing

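Each library total is small for the Polycomb subunits and IgG, and 2 libraries per group leave changes near the spread undecided. The counts of calls over all windows were, for SUZ12 (3416 reported), 1744 with DESeq2, 1616 at a minimum count of 30 and 1503 in the joint fit; for JARID2 (193), 62 with DESeq2, 92 with non-overlapping windows and 0 in the joint fit; for MTF2 (2540), 1078 with DESeq2 and 983 at a minimum of 30; for H3K27me3 (10143), 3589 with DESeq2, 6390 with library totals and 4530 at a minimum of 30; for H3K4me3 (11064), 5454 with background factors and 6545 in the joint fit. The settings did not test the same number of windows, so these counts are not shares. At a minimum of 30, 3696 windows in place of 21238 were tested for SUZ12 and 3915 in place of 20885 for MTF2. For H3K27me3 it was 9329 in place of 21863, and non-overlapping windows left 17500 in place of 22633 for JARID2. The causes of the differences were not tested.

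Among the members, SUZ12 fell at 15 and rose at 2 at a minimum of 30, and fell at 12 in the joint fit. The JARID2 fall became 0 with DESeq2, at a minimum of 30, with non-overlapping windows, in the joint fit and with the NPC libraries kept apart. MTF2 fell at 17 with background factors, at 4 at a minimum of 30, where 1 rose, and at 16 in the joint fit. H3K27me3 rose at 7 with DESeq2, 2 with background factors, 20 at a minimum of 30 and 15 in the joint fit, and fell at 10 with library totals and 3 with non-overlapping windows. H3K4me3 fell at 9 with DESeq2, 4 with background factors and 5 in the joint fit, where 8 rose.

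Replicate numbers did not pair the libraries by their deviations (correlations from -0.197 to 0.011). With the replicate block, MTF2 was called at 507 windows and fell at 0 members, H3K27me3 fell at 0 members, JARID2 with its NPC libraries kept apart was called at 125 windows and 0 members, and the difference between H3K27me3 and SUZ12 at 3. With the crossed pairing, MTF2 was called at 4086 windows and fell at 26 members. This pairing was not planned and was run only for the antibodies with the most negative correlations (-0.157 for MTF2). It follows the spread seen in these same libraries, so its larger count is no support for the falls.

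At a log2 ratio of at least 2, H3K4me3 was above IgG at 3 (ESC) and 7 (NPC) members and both marks at 0 and 0. With the IgG libraries together, SUZ12 was above in ESC at 25 (10% of all windows). With library totals, MTF2 was above in NPC at 1, H3K4me3 at 4 and 8, and both marks at 0 and 0. With each antibody fitted with IgG alone, SUZ12 was above at 27 and 5 (11.2% and 1.56% of all windows). H3K27me3 was above at 7 and 1 in these fits (11.2% and 1.58% of all windows), and both marks at 2 and 0. The difference between H3K27me3 and SUZ12 was called at 23 with library totals and 3 with background factors, and that between JARID2 and MTF2 at 0 and 2.

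The sign turned for SUZ12 at a minimum of 30 at Wnt5b (0.085), Fzd5 (0.78) and Sfrp1 (0.12), for H3K27me3 at Wnt7a without NPC replicate 2 (-0.75, against 0.84 without replicate 1), and for H3K4me3 at Fzd10 with background factors (0.015). The share of calls that were higher in NPC moved from 18.4% to 54.1% (library totals) and 7.57% (background factors) for SUZ12, from 26.9% to 59.4% and 7.41% for MTF2, and from 49.4% to 26.2% and 25.9% for H3K27me3.

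With each library left out, calls over all windows ran from 2119 to 3003 for SUZ12, 98 to 2626 for MTF2, 3573 to 10378 for H3K27me3, 7811 to 12296 for H3K4me3 and, with its NPC libraries kept apart, 67 to 139 (111 without ESC replicate 1, 117 without NPC replicate 2) for JARID2. Members that fell ran from 22 to 26, 0 to 10, 0 to 11, 10 to 16 and 0 to 1, and H3K27me3 rose at 0 to 24 and H3K4me3 at 13 to 14. Members above IgG in ESC ran from 2 to 8 for SUZ12, 3 to 20 for MTF2, 26 to 30 for H3K27me3 and 6 to 7 for H3K4me3, and in NPC from 21 to 28 for H3K27me3 and 12 to 14 for H3K4me3. The difference between H3K27me3 and SUZ12 ran from 3 to 27 members and that between JARID2 and MTF2 from 0 to 3.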
